A study of Mus musculus with 30 samples.

Results

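Rn45s (RN45S in the table) is the row of the gene table that stands for the precursor of ribosomal RNA, and it is 1 of 20541 genes listed. It was chosen by name, as a reference made by RNA polymerase I, against which the common fall of the other genes can be read. The values come from TT-seq, in which cells take up 4-thiouridine briefly, here for 10 minutes at 1 mM, and only RNA holding it is sequenced. The cells were mouse embryonic stem cells of a line labelled dTKO with the genotype Suv39h1fl/fl ; Suv39h2-/- ; Setdb1fl/fl, grown on gelatin in medium with LIF and serum. All libraries come from this 1 line, whose baseline already carries the listed alleles. Auxin (100 µg/ml) and dTAG13 (0.5 µM), compounds that trigger the breakdown of proteins with degron tags, were present for 0, 3, 12, 24 or 48 h, and 0 h was the control. Each time had 3 libraries, which the series describes as biological repeats, and every mean below has n = 3. Which proteins carry tags is not stated in the genotype label.

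Ribosomal RNA is made by RNA polymerase I from a repeated gene, while protein-coding genes are read by RNA polymerase II and transfer, 5S and several small RNAs by RNA polymerase III. The polymerase I transcript is one long precursor. Its external and internal spacers are cut away, with the help of the small-subunit processome and small nucleolar RNPs, to leave the 18S, 5.8S and 28S RNAs. A part of the repeats is kept silent by heterochromatin, in which H3K9 methylation takes part, and growing stem cells make this RNA at a high rate.

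The deposited unit lies on chromosome 17 of mm10 at chr17:39842998-39848829 on the plus strand, 5832 bp long. GENCODE M21 places the lincRNA Gm26917 (39843013 to 39846341, plus strand, 57.1% of the unit) in its first part. Further along lie the lincRNA Gm42418 (39846958 to 39848788, plus strand) and the rRNA gene CT010467.1 (39846353 to 39848827, minus strand). RefSeq lists the 18S-related pseudogene Rn18s-rs5 there (39846354 to 39848202, 1849 bp). The unit therefore holds an 18S copy with spacer on both sides and is shorter than a whole precursor. The 80-base stretches below show these joins, since they tell which parts of the precursor the measured unit can report on. They were read from the GENCODE M21 transcripts on mm10, in the direction of transcription, 5′ to 3′. Capitals mark the 18S copy and lower case the spacer. The first stretch is chr17:39843013-39843092, the second chr17:39846262-39846341, the third chr17:39846353-39846432 and the last chr17:39848162-39848241.
start of Gm26917: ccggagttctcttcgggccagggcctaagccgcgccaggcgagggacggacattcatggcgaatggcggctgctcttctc
end of Gm26917: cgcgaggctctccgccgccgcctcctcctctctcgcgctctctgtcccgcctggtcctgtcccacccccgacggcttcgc
start of the 18S copy: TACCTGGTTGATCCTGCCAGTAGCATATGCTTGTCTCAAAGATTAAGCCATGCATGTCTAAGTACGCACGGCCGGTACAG
end of the 18S copy and spacer: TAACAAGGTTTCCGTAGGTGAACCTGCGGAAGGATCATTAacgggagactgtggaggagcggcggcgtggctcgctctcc

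The spacer and the 18S copy differ in base composition. Gm26917 was 69.1% G or C over 3329 bases, the 18S copy 55.4% over 1849 bases, and Gm42418 beyond the 18S copy 71.0% over 587 bases. The share of T, the base that 4-thiouridine replaces in RNA, was alike in the 3 parts, at 22.6%, 21.9% and 22.3%. The transcript of CT010467.1, turned to the plus strand, and Gm42418 shared 1244 bases of their range with 0 mismatches. The table gives 1 value for the whole unit, so spacer and 18S reads cannot be told apart.

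Rn45s held more signal than any other gene at all 5 times. In the authors' deposited table of averages per kilobase it stood at 982680 at 0 h, 34.6 times the next gene, the microRNA gene MIR6236, whose average was 28386 per kilobase. The third was RMRP (15964 per kilobase), the RNA of the RNase MRP complex that helps to cut the precursor, and the fourth was the histone gene HIST1H4M (10763 per kilobase). The median gene was at 8.52 per kilobase. At the later times the authors' averages of Rn45s were 814128, 969052, 1082112 and 842281, each between 29.8 and 37.7 times the next gene.

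Per library, Rn45s drew between 6.11 and 7.31 M (mega) reads, which is 22.5% to 30.9% of all reads in genes, so counting error was far smaller than the spread between libraries. The 95% binomial interval (Wilson) of that share was at most 0.0186 percentage points to either side, and it covers counting error only. The other genes together held 16.4 to 22.9 M reads. Libraries were checked against cell markers: the 10 embryonic stem cell markers summed to 12711 to 22410.1 scaled reads. The 8 fibroblast markers, for feeder cells, summed to 225 to 600 and the 10 trophectoderm and endoderm markers to 388 to 681, and no defining marker was at 0 throughout. POSTN was lowest of the fibroblast list at a mean of 1.37 and ELF5 lowest of the trophectoderm and endoderm list at 1.42.

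A scaled read is a read divided by the authors' size factor of its library. At 0 h Rn45s gave 5.71, 5.53 and 5.95 M scaled reads. At 3 h it gave 4.66, 4.36 and 5.23 M, all below the 3 libraries at 0 h. At 12 h it gave 5.17, 6.05 and 5.74 M, on both sides of the level at 0 h. The values at 24 h were 6.03, 6.44 and 6.47 M, all above 0 h. At 48 h they were 4.73, 5.00 and 5.01 M, again all below 0 h. The whole range over 15 libraries was 1.48-fold, from 4.36 to 6.47 M.

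Groups without overlap were common among genes. On the authors' scale 53.5% of the 15261 tested genes had all libraries at 3 h below all at 0 h, 10.7% had all at 24 h above, and 69.6% had all at 48 h below. Being lower at 3 and 48 h thus put Rn45s with most genes, and being higher at 24 h put it with a minority.

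**Figure D1:**
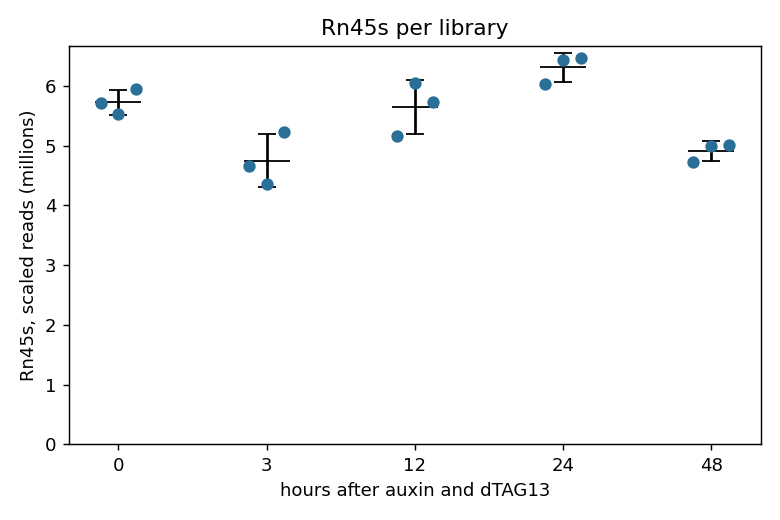
Scaled reads of Rn45s in M (vertical axis) against hours after auxin and dTAG13. Points are the 3 libraries of a time, and the bar and whiskers are the mean ± SD. The libraries at 3 h (4.36 to 5.23) and 48 h (4.73 to 5.01) sit below those at 0 h (5.53 to 5.95), and those at 24 h (6.03 to 6.47) above them.

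In order of level, Rn45s was highest at 24 h (6.31 ± 0.248 M scaled reads, mean ± SD), then 0 h (5.73 ± 0.210 M), 12 h (5.65 ± 0.448 M), 48 h (4.91 ± 0.162 M) and 3 h (4.75 ± 0.440 M). Neighbours in that order were compared with exact two-sided permutation tests, which with 3 against 3 libraries cannot give a p below 0.10. The order was taken from these same values, so the comparisons describe it and do not test it. The pair of 24 h and 0 h and the pair of 12 h and 48 h did not overlap (exact p = 0.10, adjusted over the 4 pairs 0.20). Among all tested genes 10.7% had their 24 h libraries all above 0 h, and the share for 12 and 48 h was not counted. The levels at 0 and 12 h (exact p = 0.90) and at 48 and 3 h (exact p = 0.60) overlapped.

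Each later time was then compared with 0 h in limma, fitted across all 15261 genes. On the authors' scale the log2 change of Rn45s was -0.27 (SE 0.15, 95% interval -0.58 to 0.03, limma adjusted p = 0.164) at 3 h, a decrease of 17.3% in its level. It was -0.02 (-0.33 to 0.28, limma adjusted p = 0.924) at 12 h. At 24 h it was 0.14 (-0.16 to 0.44, limma adjusted p = 0.625) and at 48 h -0.22 (-0.53 to 0.08, limma adjusted p = 0.191). None of the 4 changes passed an adjusted p of 0.05. At the same limma threshold 14.1%, 15%, 19.4% and 66% of genes were called at the 4 times, and 58.4% were called lower at 48 h. Unadjusted, no p of Rn45s in limma was under 0.05. In edgeR on the recovered reads the changes at 3 h (unadjusted p = 0.0108, edgeR adjusted p = 0.0616) and 48 h (0.0368 and 0.0551) were under it before adjustment only. The authors' deposited table gives Rn45s as unchanged at all 4 times, with 0.0974%, 1.69%, 3.57% and 7.80% of genes called there.

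The estimated movement of the other genes was close to that of Rn45s at 3 h and lay further from it later. In limma no time gave a call of Rn45s relative to the median gene. The median log2 changes of the other tested genes were -0.24, 0.18, -0.08 and -0.37 in order of time. Rn45s minus that median was -0.04 and -0.20 at the first 2 later times, then 0.22 and 0.15. Its change was at the 36.9th, 17.6th, 81.7th and 68.2nd percentile of all tested genes, so at each time it was inside the middle range of genes.

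**Figure D2:**
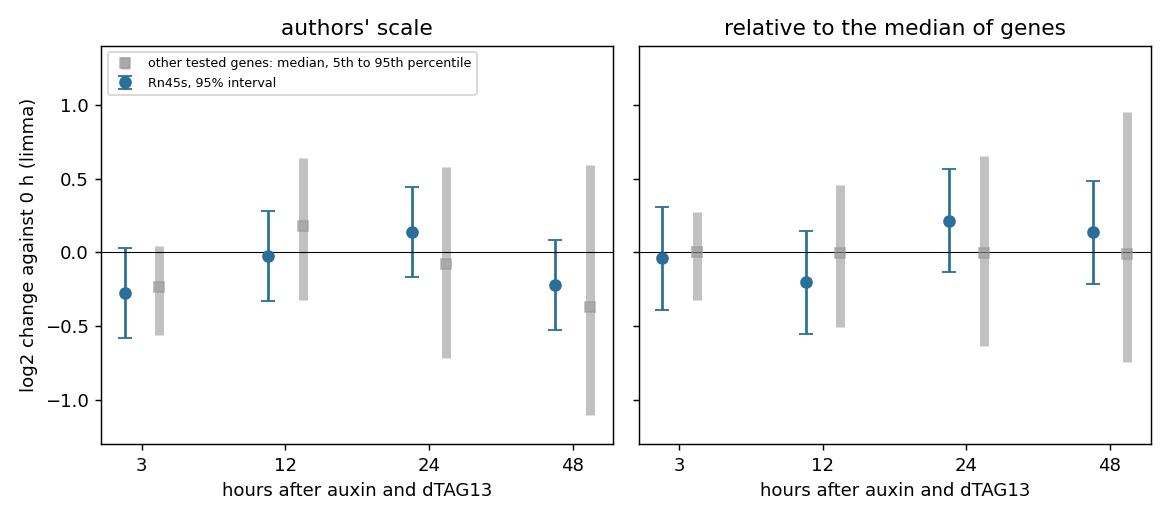
Log2 change against 0 h in limma (vertical axis) at each later time, on the authors' scale (left) and with the median of the other genes in each library set to 0 (right). Circles are Rn45s with its 95% interval, and squares and grey bars are the median and the 5th to 95th percentile of the other tested genes. On the left Rn45s is at -0.27, -0.02, 0.14 and -0.22, and on the right at -0.04, -0.20, 0.22 and 0.14, inside the grey bars throughout.

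Set against the median of the other genes in the same library, Rn45s changed by a log2 value of -0.04 at 3 h (95% interval -0.39 to 0.31, limma adjusted p = 0.926) and -0.20 at 12 h (-0.55 to 0.15, 0.401). At 24 h it was at 0.22 (-0.13 to 0.56, limma adjusted p = 0.324) and at 48 h at 0.14 (-0.21 to 0.49, 0.506). No time passed in limma, where 13.1%, 30.8%, 43.6% and 58.7% of genes were called. The 4 intervals together reached from -0.55 to 0.56, so a lack of a call does not show that Rn45s kept its place among the genes. The calls at 12 and 24 h depended on the tool. At 12 h edgeR with TMM scaling gave -0.20 with an edgeR adjusted p = 0.0263 and DESeq2 -0.20 with a DESeq2 adjusted p = 0.0402. At 24 h edgeR gave 0.23 (adjusted p = 0.00979) and DESeq2 0.22 (adjusted p = 0.0168). Limma without its intensity trend also called 24 h (limma adjusted p = 0.0418), as did limma without 24 h replicate 2 (0.31, limma adjusted p = 0.0495). For these alternative runs the share of all genes called is not given here, so the calls cannot be set against it. With single libraries left out in turn, the limma adjusted p ran from 0.210 to 0.655 at 12 h and from 0.0495 to 0.570 at 24 h. The trend sets the expected spread of Rn45s from genes of like level, of which there are few.

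The share of Rn45s in the reads of genes needs no size factor. It was 26.7%, 24.1% and 27.2% at 0 h and 25.6%, 25.9% and 26.2% at 3 h, so the libraries at 3 h lay within the range at 0 h. At 12 h the shares were 23.9%, 22.5% and 23.8%, all below those at 0 h. Relative to the median gene, 20.8% of all genes had their 12 h libraries all below those at 0 h. They were 29.5%, 26.1% and 30.9% at 24 h, where 2 of the 3 libraries exceeded every library at 0 h. At 48 h they were 26.9%, 27.0% and 27.0%, within the range at 0 h.

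The mean shares were 26.0% ± 1.64 (SD), 25.9% ± 0.342, 23.4% ± 0.779, 28.8% ± 2.45 and 27.0% ± 0.0819 in order of time. The differences from 0 h were -0.0940, -2.57, 2.83 and 0.957 percentage points, with exact two-sided permutation p of 1, 0.10, 0.30 and 0.50, and adjusted over the 4 times 1, 0.40, 0.60 and 0.667. The 12 h value of 0.10 is the smallest that 3 against 3 libraries can give. All 12 later libraries against the 3 at 0 h differed by 0.282 points (exact permutation p = 0.873, 7 of 12 above the 0 h mean). This test pooled 4 times whose differences from 0 h had opposite signs. It therefore does not show that the share kept its level at any 1 time.

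**Figure D3:**
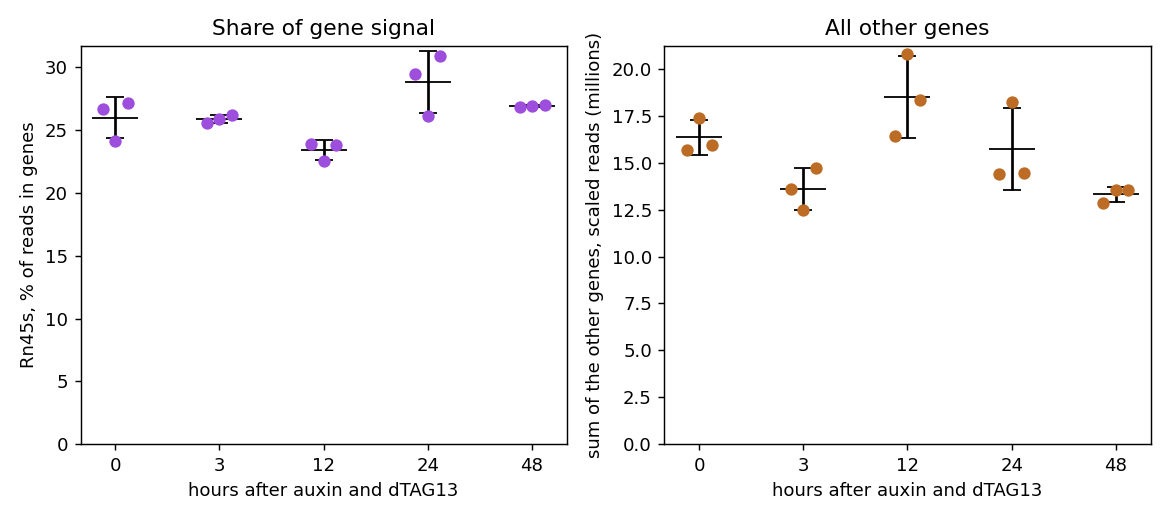
Rn45s as a percentage of reads in genes (left) and the summed scaled reads of all other genes in M (right), against hours after auxin and dTAG13. Points are libraries, and bars with whiskers are mean ± SD. The share is lowest at 12 h (22.5 to 23.9%) and highest at 24 h (26.1 to 30.9%), and the other genes are highest at 12 h (16.4 to 20.8 M).

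As a ratio to the summed scaled reads of all other genes, Rn45s stood at 0.364, 0.318 and 0.373 at 0 h. The 3 h libraries had 0.343, 0.350 and 0.356, and those of 12 h 0.314, 0.291 and 0.313. The 24 h libraries had 0.418, 0.353 and 0.447, and those of 48 h 0.367, 0.369 and 0.370. The 3 libraries at 12 h lay below all 3 at 0 h, and those of the other times overlapped them. The log2 differences from 0 h were -0.01, -0.20, 0.20 and 0.07 (exact permutation p = 1, 0.10, 0.30 and 0.50).

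The 2 terms of the ratio were also compared over all 12 later libraries. The log2 value of Rn45s was lower by 0.10 on average than at 0 h (difference -0.10, exact permutation p = 0.420), and the log2 sum of the other genes differed by -0.11 (exact permutation p = 0.429). Their ratio differed by 0.02 (exact permutation p = 0.897). These tests pooled times that differed from 0 h in opposite directions, so they do not describe any single time. Library by library, the lowest ratio of all, 0.291 in 12 h replicate 2, went with the highest sum of other genes, 20.8 M scaled reads. In 24 h replicate 2, whose share of Rn45s was the lowest at that time, the other genes summed to 18.2 M, against 14.4 and 14.5 M in the other libraries at 24 h. Rn45s itself was at 6.44 M in that library, next to 6.47 M in replicate 3.

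The choice of reference mattered at 48 h. Against all units of the table that do not overlap Rn45s, repeats and non-coding units included, the log2 ratio at 48 h was -0.09 in place of 0.07 (exact permutation p = 0.40), and over all later libraries -0.05 in place of 0.02 (exact permutation p = 0.565).

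Changes between neighbouring times were added after the values had been seen. From 24 to 48 h Rn45s fell by 0.36 on the authors' log2 scale (95% interval -0.66 to -0.06, limma adjusted p = 0.0466). The share of all genes called over this step was not counted, so the call cannot be set against it. Relative to the median gene the same step was -0.08 (limma adjusted p = 0.751). From 12 to 24 h it was 0.16 on the authors' scale (limma adjusted p = 0.390) and 0.42 relative to the median gene (0.07 to 0.77, limma adjusted p = 0.0708), which did not pass.

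The genes whose values over the 15 libraries were most like those of Rn45s were LARS2, CAMK1D, GPHN, CDK8 and CMSS1. Only genes with an ordinary symbol and a mean of at least 100 were compared. Predicted genes and clones, with symbols such as those of the Gm, LOC and Rik kinds, were left out before the ranking. Pearson's r of log2(value + 1) with Rn45s, after the median of genes was removed from each library, was 0.979, 0.970, 0.958, 0.945 and 0.932. The median r of the 10205 genes compared was -0.03 and their 99th percentile 0.775. On the authors' scale the same 5 genes led, with r from 0.951 to 0.980 against a median of 0.571. These r describe 15 libraries that share their size factors and depth, and 8 of the genes compared reached 0.90 on the rescaled values. Within times, after each time's mean was removed, r was 0.930 for LARS2, 0.922 for CAMK1D, 0.859 for GPHN, 0.812 for CDK8 and 0.928 for CMSS1.

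LARS2 (chr9:123366941-123462664, plus strand) encodes the mitochondrial leucyl-tRNA synthetase and GPHN (chr12:78226656-78684769, plus strand) the synaptic scaffold gephyrin. CDK8 (chr5:146231676-146302874, plus strand) encodes the kinase of the Mediator complex and CAMK1D (chr2:5293458-5714762, minus strand) a calcium-dependent kinase. CMSS1 (chr16:57302001-57606867, minus strand) encodes a protein of the small ribosomal subunit pathway. They lie on 5 chromosomes, none of them chromosome 17.

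The same 5 genes were the second to sixth highest of all 20541 genes by mean scaled reads. Their means were 428285 for CMSS1, 275319 for LARS2, 170673 for CDK8, 89859.9 for GPHN and 35989 for CAMK1D, beside 5470711 for Rn45s. LARS2 stood at 4.77% to 5.24% of Rn45s in every library, CDK8 at 2.90% to 3.29%, GPHN at 1.57% to 1.73%, CAMK1D at 0.620% to 0.688% and CMSS1 at 7.37% to 8.57%. Together they were 17.6% to 19.0% of Rn45s, a range narrower than the 1.48-fold range of Rn45s itself. They made up 5.44% to 8.47% of the signal of the other genes. Without them in the reference, a choice made after the values were seen, the log2 ratio of Rn45s to the other genes differed from 0 h by -0.21 at 12 h and 0.22 at 24 h, close to -0.20 and 0.20 with them.

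LARS2 can serve as the example. Before treatment it gave 294485, 289922 and 283466 scaled reads, and after 3 h 234357, 220704 and 260992. The 12 h libraries held 265931, 313430.4 and 288811, the 24 h libraries 300675, 317021 and 330879, and the 48 h libraries 231997, 248992 and 248117. As for Rn45s, the libraries at 3 and 48 h were all below 0 h, those at 24 h all above and those at 12 h on both sides. Relative to the median gene its log2 changes were -0.05, -0.18, 0.20 and 0.11, beside -0.04, -0.20, 0.22 and 0.14 for Rn45s. The gene was chosen for this likeness, so these values are a description.

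**Figure D4:**
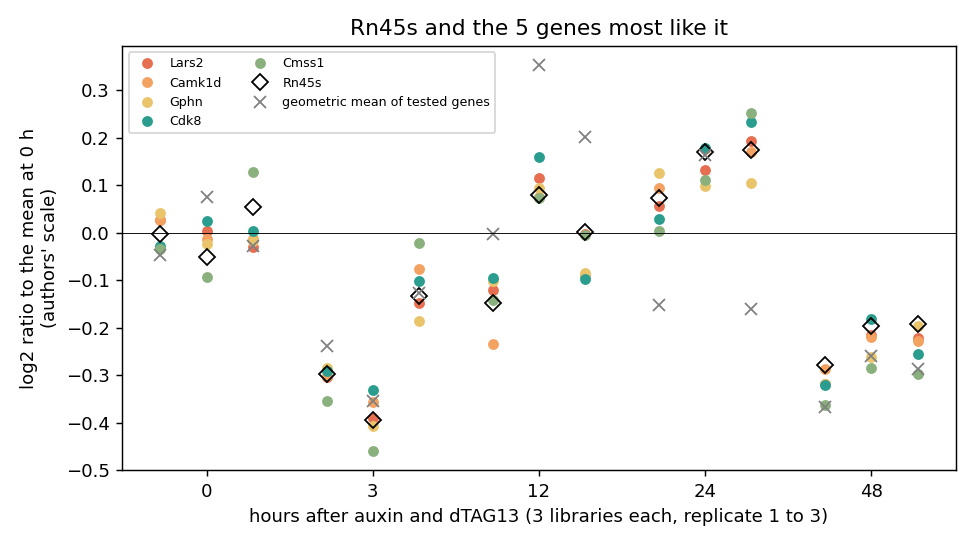
Log2 ratio to the mean of the 3 libraries at 0 h, on the authors' scale (vertical axis), for each of the 15 libraries in order of time and replicate. Diamonds are Rn45s, coloured circles the 5 genes most like it and crosses the geometric mean of all tested genes. The circles stay near the diamonds in each library, while the crosses lie above them in 12 h replicate 2 and below them in replicates 1 and 3 at 24 h.

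RMRP was the next most alike of the genes compared (r = 0.927) and also the third in signal per kilobase. Its log2 changes relative to the median gene were -0.03, -0.20, 0.21 and 0.11. MIR6236, second per kilobase, did not share the low values at 12 h, with 0.00, 0.01, 0.09 and 0.07, and HIST1H4M had 0.05, -0.14, 0.21 and 0.28. Ribosomal sequence is repeated in the genome, and the counting rule for reads with several positions is not stated in the labels or notes. The part of such reads in these genes was not tested.

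Non-coding units, which the authors list apart from genes but which can overlap them, gave a like picture. Of 2819 such units with a mean of at least 100 that do not overlap Rn45s, 22 reached r = 0.90 with Rn45s on the rescaled values, against a median r of 0.340. The most alike was a unit of 600 bp at chr11:109011602-109012201 on the plus strand, with r = 0.980. It overlapped no listed gene, had the second highest mean of all non-coding units (595886 scaled reads) and was 10.4% to 11.4% of Rn45s in every library. The next was a 600 bp unit at chr3:5860202-5860801 on the plus strand, with r = 0.979, at 5.63% to 6.09% of Rn45s and also outside listed genes. An 800 bp unit at chr13:44869402-44870201 on the minus strand (r = 0.972, 1.95% to 2.19% of Rn45s) lies inside JARID2 on the opposite strand. An 800 bp unit at chr1:46075802-46076601 on the minus strand (r = 0.969, 0.204% to 0.227% of Rn45s) lies inside DNAH7B on the opposite strand. These units were picked after their values were seen.

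At the Rn45s locus itself, a non-coding unit on the same strand (chr17:39842802-39849201) repeated the value of Rn45s with 1 to 5 scaled reads more in each library, so it is the same signal listed a second time. The unit on the opposite strand (chr17:39842802-39848801) held 6756 to 19527 scaled reads, which is 0.155% to 0.328% of Rn45s. As a share of Rn45s it was 0.238% ± 0.0784 (SD) at 0 h and 0.202% ± 0.0629, 0.228% ± 0.0716, 0.201% ± 0.0535 and 0.202% ± 0.0326 at the later times. Replicate 3 was highest at every time, between 0.236% and 0.328%, and the other replicates lay between 0.155% and 0.199%. Its log2 changes on the authors' scale were -0.51, -0.08, -0.09 and -0.42, and none passed (limma adjusted p = 0.123, 0.819, 0.777 and 0.0969). That fit had no term for the replicate number, so the high replicate 3 entered its spread. A fit with such a term was not run for this unit, so the lack of a call does not show a lack of change. The strand setting of the counting is not stated, so how well the strands are separated is not known.

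The first 166 bases of the unit are also listed as a copy of the DNA transposon FordPrefect on the plus strand. That copy held only 3 to 15 reads per library.

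The genes of the polymerase I pathway were read by polymerase II like other genes, and their nascent RNA was compared with Rn45s next. Polymerase I subunits fell at 48 h: on the authors' scale 8 of 8 were called lower, with a median log2 change of -0.62 beside -0.37 over all genes, where 58.4% were called lower and 7.65% higher. Relative to the median gene 6 of 8 were lower at 48 h and none higher, with a median of -0.26, and 29.2% of all genes were called lower and 29.5% higher. Without single libraries 6 or 7 of the 8 were called lower on the authors' scale. POLR1D lost its call without any 1 of the 6 libraries at 0 h and 48 h (limma adjusted p = 0.0504 to 0.104), and leaving out 0 h replicate 2 (0.152) or 48 h replicate 1 (0.0576) took that of ZNRD1. At 3 h 1 of 8 (POLR1B) was called lower on the authors' scale (13.5% of all genes) and none on the rescaled one (8.16%). At 12 and 24 h 4 of 8 were lower relative to the median gene each time, while 15% and 22% of all genes were. Rn45s was at 0.14 relative to the median gene at 48 h (95% interval -0.21 to 0.49), without a call. That estimate was above those of all 8 subunits, which ran from -0.44 to 0.07, but its interval overlapped their range.

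The largest subunit gene, Polr1a, fell from 3874 ± 236 scaled reads (SD) before treatment to 2491 ± 101 after 48 h (log2 change -0.64, SE 0.12, limma adjusted p = 1.55e-06), and stood at -0.28 relative to the median gene. Polr1b, the second-largest, went from 1777 ± 139 to 1062 ± 25.6 (-0.74, and -0.38 relative to the median gene). Polr1c and Polr1d, which polymerases I and III share, changed by -0.80 and -0.29, and Polr1d was at 0.07 relative to the median gene without a call. Polr1e and Polr1g, of the dimer that helps initiation, changed by -0.58 and -0.70, and Polr1f and Polr1h by -0.60 and -0.42. The values of Polr1h relative to the median gene were small, -0.06 at 48 h without a call.

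Of the 18 genes for polymerase I initiation, activation and termination, 15 were lower and 1 higher at 48 h on the authors' scale, and 10 lower and 4 higher relative to the median gene (medians -0.48 and -0.12). The shares of all genes were 58.4% lower and 7.65% higher on the authors' scale, and 29.2% and 29.5% relative to the median gene. Without single libraries 13 or 14 of the 18 were lower on the authors' scale and 8 to 10 relative to the median gene. Mycn, a Myc family activator of growth genes, fell most, from 1826 ± 42.5 to 707 ± 8.32 scaled reads at 48 h (-1.37, SE 0.13, limma adjusted p = 5.25e-26), and was already lower at 3 h by 0.43 (log2 change -0.43). Ubtf, the factor that holds active ribosomal genes open, went from 1284 ± 57.5 to 812 ± 23.1 (-0.66, and -0.30 relative to the median gene). Taf1a, a subunit of the polymerase I selectivity factor, changed by -0.64. Cavin1, which is both a caveola protein and a polymerase I transcript release factor, rose from 193 ± 23.4 to 332 ± 14.0 (0.79, limma adjusted p = 5.95e-08).

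Genes linked to silencing of ribosomal repeats followed the other genes. Of 20, 16 were called lower at 48 h on the authors' scale, or 10 without 0 h replicate 2, with a median of -0.36 beside -0.37 over all genes. Relative to the median gene 4 were higher and 6 lower, with a median of 0.00. The shares of all genes called lower were 58.4% on the authors' scale and 29.2% relative to the median gene, where 29.5% were higher. Those with the smallest adjusted p were Ehmt2 (-0.71), an H3K9 methyltransferase, Cbx1 (-0.64), an HP1 protein, Parp1 (-0.64) and the deacetylase Sirt1 (-0.55). Relative to the median gene these stood at -0.35, -0.28, -0.28 and -0.19.

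Genes for processing the precursor were read beside all genes at 48 h, of which 58.4% were called lower on the authors' scale and 29.2% relative to the median gene. Of 37 small-subunit processome genes 35 were lower at 48 h on the authors' scale and 30 relative to the median gene (medians -0.53 and -0.17), with 1 higher relative to it. Tbl3 (-1.17) and Rrp9 (-1.06) had the smallest adjusted p. Of 18 small nucleolar RNP and nucleolar protein genes 17 and 15 were lower (medians -0.59 and -0.23), among them Nop56 (-0.79) and the treacle gene Tcof1 (-0.72). Of 36 large-subunit assembly genes 35 and 29 were lower (medians -0.58 and -0.22), led by the SUMO protease gene Senp3 (-1.06) and Noc2l (-0.98). Of 16 measured snoRNA host genes 13 and 10 were lower (medians -0.57 and -0.21). Without single libraries the counts relative to the median gene were 23 to 28 for the processome and 13 to 15 for the nucleolar list. They were 25 to 29 for large-subunit assembly and 9 to 10 for the host genes. At 24 h, relative to the median gene, 24 of 37, 16 of 18, 21 of 36 and 10 of 16 of these lists were lower, beside 22% of all genes, and Rn45s was at 0.22 without a call.

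The polymerases were described by their own subunit lists, again beside 58.4% and 29.2% of all genes called lower on the 2 scales. All 7 polymerase II subunits were lower at 48 h on the authors' scale and 4 of 7 relative to the median gene (medians -0.56 and -0.20). Without single libraries 5 or 6 of them were lower on the authors' scale and 3 or 4 relative to the median gene. Of 5 subunits shared by the 3 polymerases 4 and 3 were lower (medians -0.59 and -0.23). Of 21 polymerase III subunits and factors 20 and 10 were lower, with medians of -0.43 and -0.07. The count of 20 became 13 without 0 h replicate 2, and the count of 10 became 6 without 48 h replicate 1.

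**Figure D5:**
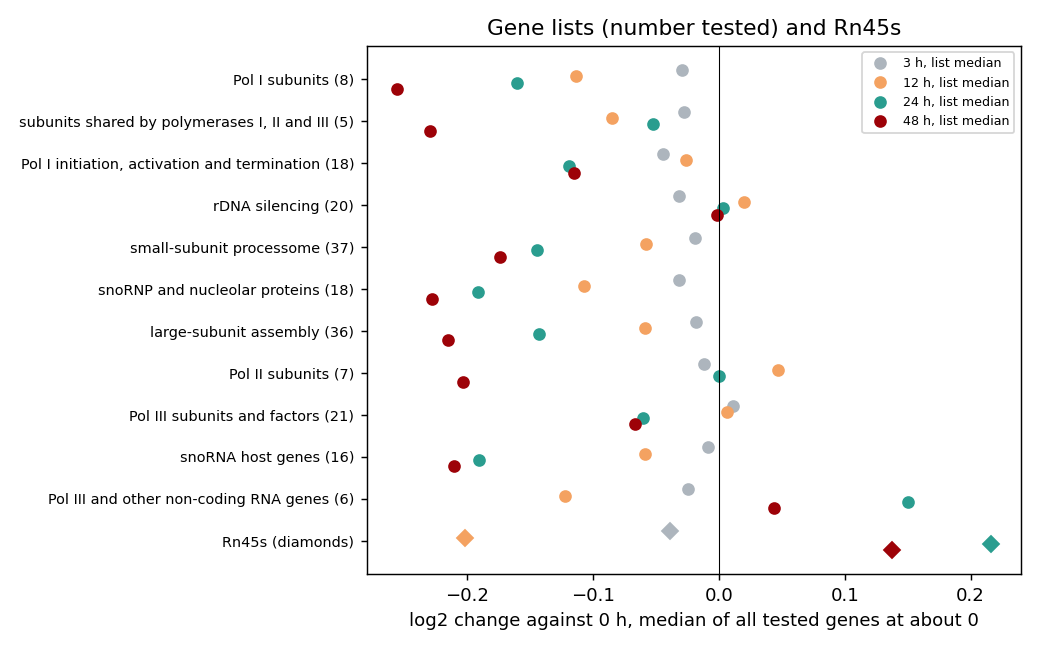
Median log2 change against 0 h of each gene list (circles, number of tested genes in brackets) with the median of all tested genes at about 0, and of Rn45s (diamonds), coloured by time. At 48 h the polymerase I subunits are at -0.26 and the processome at -0.17, and Rn45s is at 0.14 without a call.

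Short RNAs made mostly by polymerase III offered a further reference, and 6 of 21 listed were measured. At 48 h 3 of 6 were lower on the authors' scale and none relative to the median gene, where 2 were higher (medians -0.32 and 0.04). Of all genes 58.4% were lower and 7.65% higher on the authors' scale. Relative to the median gene 29.2% were lower and 29.5% higher. RPRL3 lost its call without any single library at 0 h or 48 h other than 0 h replicate 2 (limma adjusted p = 0.0566 to 0.147), which left 2 of 6 lower. Without single libraries, 1 to 3 were higher relative to the median gene. Rpph1, the RNase P RNA, went from 2829 ± 384 to 2046 ± 145 scaled reads (-0.46, and -0.10 relative to the median gene without a call). The vault RNA gene Vaultrc5 rose from 404 ± 109 to 589 ± 118 (0.56). The copies of the 7SK RNA family, summed, changed by -0.25, -0.02, -0.01 and -0.35 on the authors' scale and by -0.01, -0.20, 0.06 and 0.01 relative to the median gene. Its 12 h value of -0.20 passed among repeat families (limma adjusted p = 0.00722), and the share of all repeat families called there was not counted. Rn45s was at -0.20 at that time too, without a call (limma adjusted p = 0.401), and a link between these values was not tested.

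Cell markers moved beside these values. Among all genes at 48 h, 58.4% were called lower and 7.65% higher on the authors' scale, and 29.2% and 29.5% relative to the median gene. At 48 h 9 of 10 embryonic stem cell markers were lower and 1, Zfp42, higher (0.86), with 8 lower and 1 higher relative to the median gene. Of 7 measured fibroblast markers 6 were higher at 48 h and 1, Thy1, lower (-2.23), and their sum went from 314 to 393 scaled reads at 0 h to 435 to 600 at 48 h. Of 8 measured trophectoderm and endoderm markers 1 was higher and 2 were lower on the authors' scale, and 5 were higher and 1 lower relative to the median gene. On the authors' scale leaving out replicate 2 (limma adjusted p = 0.0747) or 3 (0.0548) of 48 h took the call of GATA3, the higher one, and leaving out replicate 2 or 3 of 0 h or 48 h took that of CDX2, a lower one (up to 0.148). Without 48 h replicate 2, 3 were higher and none lower relative to the median gene. Their part in the values of Rn45s was not tested. In bulk libraries a change in the number of cells of a kind and a change in RNA per cell cannot be told apart.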

How the data were processed

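The table holds 1 value per unit and library of TT-seq. Each of the 15 libraries was sequenced in 2 runs (30 samples) and is 1 replicate here. Tools named in the submitters' processing notes are STAR 2.5.2a, DESeq2 and deepTools, with mm10 (GRCm38). The counter, its strand setting and the handling of reads with several positions are not stated in the labels or notes. The values are signal that the authors made by dividing reads by 1 size factor per library: 99.997% to 99.999% of the nonzero values were whole multiples of the library's step (tolerance 0.05), and multiplying back gave the recovered reads. Whether the yeast spike-in set the size factors is not shown. A second deposited table gives the authors' averaged signal per kilobase and their calls.

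Genes with a mean of at least 10 (15261) were fitted in limma 3.58.1 (R 4.3.3) on log2(value + 1) with an intensity trend, all 15 libraries in 1 fit, two-sided, Benjamini-Hochberg adjusted over all genes. A call is an adjusted p under 0.05. Rescaled values set the median gene, Rn45s left out, to 0 in each library. Shares and ratios were compared by exact two-sided permutation tests. Recovered reads were tested with edgeR 4.0.16 and DESeq2 1.42.0 as alternatives. In simulated reads of 15261 genes, 50 genes were changed by each factor at 48 h. Limma found 100% of the 2-fold changes, 16% of 1.25-fold rises and 16% of falls to 0.8. The changed genes were drawn from those with a mean well above the minimum, Rn45s left out. These rates therefore do not cover weaker genes or Rn45s. Genes named are Rn45s, polymerase I subunits, up to 4 genes per list by adjusted p at 48 h and the next 3 in signal per kilobase. Also named are the 5 genes most correlated with Rn45s among those with an ordinary symbol and a mean of at least 100. Rn45s and the gene lists were chosen with earlier results of these data known.

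Over all genes, deviations of same-numbered libraries had r between -0.0425 and 0.0790, so the numbers were not taken as pairs. The unit opposite Rn45s, where replicate 3 was highest at every time, is an exception.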

Additional observations from a re-analysis of the deposited data

How the results depend on the processing

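The 4 changes of Rn45s kept their lack of a call on the authors' scale under each alternative run (pseudocount 10, no minimum, no trend, only the groups compared, a replicate block, edgeR, each library left out). Without single libraries the 12 h change ran from -0.073 to 0.041. Relative to the other genes, without single libraries the 3 h change ran from -0.10 to 0.0042. The 12 h change was called with edgeR and TMM (-0.20) and DESeq2 (-0.20). That at 24 h was called without the trend (0.22), with edgeR (0.23), with DESeq2 (0.22) and without 24 h replicate 2, with a range of 0.14 to 0.31 over libraries left out. Shares of all genes called in these runs are not given. Against all units that do not overlap Rn45s, the share differed by -1.05 points at 48 h and -0.576 points over all later libraries, and the log2 ratio by -0.090 and -0.051; the cause was not tested. Without the top 1% of genes, with the geometric mean of the tested genes or without the 5 genes most like Rn45s, no direction changed. With single libraries left out, the share differed by -1.03 to 0.498 points at 3 h and by -0.655 to 0.873 points over all later libraries, and the log2 ratio by -0.077 to 0.039 and -0.053 to 0.063. With a replicate block by sign flips, the share differed by -2.57 points at 12 h (exact p = 0.25, the smallest 3 pairs allow), and the block changed no call of Rn45s.

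The 2150 genes called at 3 h became 1263 without the trend, 6119 with only the groups compared, 3230 with a replicate block and 470 to 2993 without single libraries. The 2288 at 12 h became 4705 after median rescaling and 1194 to 5547 without single libraries. The 2960 at 24 h became 6647 after rescaling and 2156 to 4938 without single libraries. At 48 h, relative to the median gene, RPPH1 ran from -0.21 to 0.022 without single libraries, BC1 from -0.049 to 6.7e-05, RPRL3 from -0.16 to 0.037, ZNRD1 (Polr1h) from -0.13 to 0.048, CMSS1 from -0.042 to 0.12, MIR6236 from -0.053 to 0.18 and RMRP from -0.013 to 0.23. In limma with the trend, log2 changes of Rn45s had an SE of 0.15 on the authors' scale and 0.17 relative to the median gene. That SE rests on the trend as well as on the 3 libraries a time. DESeq2 with its own size factors gave an SE of 0.079. The non-coding unit on the same strand, fitted among non-coding units, had 0.285 on the authors' scale and 0.098 relative to the median gene. Its 24 h change relative to the median gene was 0.22 (95% interval 0.01 to 0.42, limma adjusted p = 0.0665).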
